A study of Saccharomyces cerevisiae with 4 samples.

Results

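The protein-making machinery of budding yeast, Saccharomyces cerevisiae, was followed through 48 genes: translation factors and cytosolic tRNA synthetases. They were taken by name, not by a cut on measured values, from the 6678 open reading frames (ORFs) of the deposited table. Earlier results of these data were known when they were chosen. All 48 genes were found in it. They form 3 classes. The elongation class has 10 genes, TEF1 to TIF2, the initiation and release class 17, CDC33 to SUP35, and the synthetase class 21, of which 20 encode subunits of synthetases and the last is ARC1, their cofactor. Among the 20, FRS1 and FRS2 are both for phenylalanine and none is for proline, so they do not cover every amino acid. TIF1 and TIF2 stand in the elongation class by the list's order although they encode eIF4A, an initiation helicase.

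Total RNA was sequenced from strain SEY6210, a haploid of mating type alpha that carries leu2-3,112, ura3-52, his3-∆200 and trp1-∆901 besides suc2-∆9, lys2-801 and GAL. The mutant, strain JMY047, is SEY6210 with PHO23 replaced by HIS5. Pho23 is a subunit of Rpd3L, a histone deacetylase complex. Each genotype was taken at mid-log growth in rich medium (YPD) and 2 h after a shift to SD-N, a medium without nitrogen. All 4 groups share the other markers, each group is 1 library, and no difference given here has a replicate check. Nitrogen loss cannot be told apart from the other differences between YPD and SD-N, which starvation stands for below.

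Translation begins when eIF2, loaded with GTP and the initiator tRNA, joins the small ribosomal subunit with eIF1, eIF1A, eIF3 and eIF5, while eIF4E, eIF4G and eIF4A bring in the capped mRNA. Elongation then cycles through eEF1A, which delivers charged tRNA, its exchange factor eEF1B, the translocase eEF2 and, in fungi, the ATPase eEF3. Release factors eRF1 and eRF3 end the chain. The tRNA synthetases join each amino acid to its tRNA. When amino acids run short, uncharged tRNA activates the kinase Gcn2, eIF2 is phosphorylated and translation of GCN4 mRNA, for an activator of amino acid genes, goes up. Loss of good nitrogen also lowers TORC1 signalling, on which the transcription of ribosome and translation genes depends.

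The values are RPKM, reads per kilobase of ORF scaled to library size, as the authors deposited them. Where 4 values follow each other, they are those of wild type growing, the deletion growing, wild type starved and the deletion starved. They are shares of a library, so fewer cells and less RNA per cell cannot be told apart, and total RNA per cell is not seen. The 4 libraries held a rough 1.96e+07 to 2.75e+07 reads, estimated from the step between the lowest values. PHO23 stood at 12.3, 0.13, 23.4 and 0.0546. Markers of mating type went partly against the alpha label, after starvation and in the deletion. The 7 a-specific genes, which alpha cells should keep silent, had summed RPKM of 58.1, 17.1, 2883 and 647, with none at 0, so both starved sums were above both growing ones. The 4 alpha-specific genes had sums of 8081, 2148, 19169 and 2980.5. Each of the 4 was lower in the deletion in both conditions. In growing wild type and the growing deletion, MF(ALPHA)1 was at 5363 and 2001 and MF(ALPHA)2 at 1745 and 55.6. STE3 was at 291 and 59.6 and SAG1 at 682 and 31.2. What this means for other values of the deletion libraries was not tested. These lists move with starvation and with genotype, and their part in the results below was not tested. Whether the starved wild-type library, which has the highest a-specific sum, holds RNA of cells other than the labelled alpha strain was not tested either, and every value that uses it carries that doubt.

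A log2 fold is log2 of the ratio of (RPKM + 1), on the values as deposited. A gene is said to rise or fall at 2-fold or more, with an RPKM of at least 10 in a library compared. All 48 genes were at 10 or more in every library, the lowest being TIF4632 at 24.4 in the growing deletion. The weakest member value rests on about 1492 estimated reads, so the 95% counting interval of a ratio spans at most 1.15-fold from its lower to its upper bound. That interval covers counting error only.

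In growing wild type the elongation genes were the most abundant of the 3 classes. Their median RPKM was 1348, against 334 for initiation and release and 291 for the synthetases. Together the 10 elongation genes made up 2.23% of the summed RPKM, the 17 initiation and release genes 0.783% and the 21 synthetase genes 0.585%. In starved wild type the shares were 1.24%, 0.332% and 0.654%, so the synthetases then stood above the initiation class. In the starved deletion they were 1.28%, 0.342% and 0.550%. The elongation values include 3 near-identical gene pairs described below. How reads of such copies were assigned is not given, so the elongation shares and medians are uncertain. The plot of all member levels shows the first 2 classes stepping down between growing and starved cells and the synthetase genes crossing each other.

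**Figure D1:**
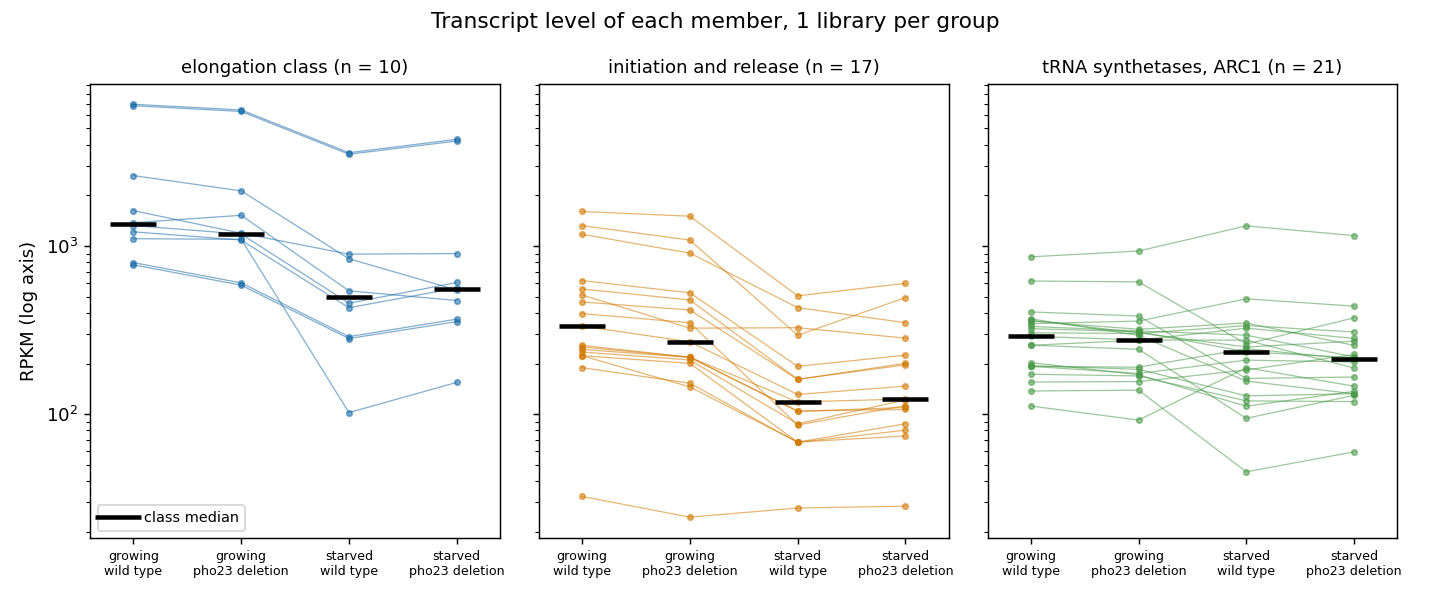
RPKM (log axis) of every member in the 4 libraries, 1 panel per class, with lines joining the same gene and black bars for class medians. The elongation median lies at 1348 in growing and 499 in starved wild type, and the synthetase median at 291 and 235.

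A total of 3 pairs of genes in the elongation class cannot be separated by these data. TEF1 and TEF2, both for eEF1A, differ at 2 of 1377 coding bases in the R64 genome and share an identical stretch of 761. EFT1 and EFT2, both for eEF2, differ at 4 of 2529 bases, and TIF1 and TIF2 at 6 of 1188. How reads from such copies were assigned is not given in the sources used here. The ratio of TEF1 to TEF2 was 0.981, 0.980, 0.980 and 0.977 over the 4 libraries, and that of EFT1 to EFT2 lay between 0.967 and 0.974. Values of such a pair are given as deposited and count as uncertain for the single gene. Class sums and medians that hold them carry the same doubt.

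Most translation factors fell in starved wild type. As deposited, 27 of the 48 genes fell and none rose, where 13.3% of the 5956 eligible ORFs fell and 32.7% rose. The counts were 7 of 10 in the elongation class, 15 of 17 in initiation and release and 5 of 21 among the synthetases. Class medians of the log2 fold were -1.46, -1.46 and -0.17. The median over all eligible ORFs was 0.53, so the classes lay 1.99, 1.99 and 0.70 below it. Scaling the libraries by median of ratios, which centres the ratios over ORFs, moved that ORF median by -0.51, and scaling them to equal summed RPKM (equal sums below) by 0.31. Under those scalings 35 members were lower and none higher, and 21 lower and 1 higher (ALA1, at 1.07). The distance between class medians is not a matter of such scaling: elongation lay at -1.28 and initiation and release at -1.29 relative to the synthetases. At a lower limit of 1.5-fold, 33 members were lower and 2 higher, where 19% and 48.2% of ORFs were.

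The lowest starvation fold among the 48 genes was that of a subunit of eEF1B, the exchange factor of eEF1A, in both genotypes. TEF4 (YKL081W, chromosome XI, 282891 to 284455 in R64), for its gamma subunit, had RPKM values of 1104, 1095, 102 and 155. Both starved libraries lay far below both growing ones. In wild type the value was 10.8-fold lower after starvation (RPKM ratio 0.0925, counting interval 0.0892 to 0.0959), and in the deletion 7.09-fold. EFB1 (YAL003W, chromosome I, 142174 to 143160), the catalytic alpha subunit, stood at 2620.4, 2124, 839 and 547, 3.12-fold lower in wild type and 3.88-fold in the deletion. These are the only members of the 48 with an intron in the annotation. The TEF4 intron, of 326 bases, holds the snoRNA gene SNR38 and the EFB1 intron, of 366 bases, holds SNR18, and whether intron reads were counted is not given in the sources used here.

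The eEF1A genes did not pass 2-fold. TEF1 (YPR080W) was at 6817, 6304, 3509 and 4204 and TEF2 (YBR118W) at 6952, 6432, 3582 and 4305, each with a log2 fold of -0.96 in wild type. YEF3, for eEF3, was at 1622, 1189.8, 894 and 901 (-0.86). EFT1 was at 772, 584, 282 and 355 and EFT2 at 796, 603, 289 and 367. For eEF2 both starved libraries lay below both growing ones, with folds of -1.45 and -1.46 in wild type. HYP2, for eIF5A, a hypusine-bearing factor that helps the ribosome past difficult peptide bonds, was at 1375, 1521, 541 and 474 (-1.35). TIF1 was at 1322, 1177, 457 and 606 and TIF2 at 1213, 1084, 429 and 563, with folds of -1.53 and -1.50.

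Of the initiation factors, TIF5 and TIF11 had the lowest folds. TIF5 (YPR041W), for eIF5, which triggers GTP hydrolysis by eIF2, was at 396, 349, 86.2 and 112 (log2 fold -2.19 in wild type). TIF11 (YMR260C), for eIF1A, was at 1321, 1083, 295 and 493 (-2.16). SUI1, for eIF1, which guards start codon choice, was at 1602, 1502, 505 and 599.8 (-1.66). In each of these the growing libraries lay above the starved ones without overlap, and the share of all ORFs in that order was not counted.

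In starved wild type, folds were close together within eIF2 and less so within eIF3. For eIF2, SUI2 (alpha) was at 334, 269, 131 and 147, SUI3 (beta) at 243, 217, 104 and 107, and GCD11 (gamma) at 257, 218, 104 and 109.6. Their wild-type folds spanned only -1.34 to -1.21. The 5 genes of eIF3 had folds of -1.78 to -1.41, where the quartiles of the whole class were -1.69 and -1.30. In the deletion the eIF3 starvation folds ran from -1.28 to -0.78. TIF35 was at 554, 477, 161 and 196 and TIF34 at 464, 416, 161 and 201. These small subunits were the higher ones per length in all 4 libraries. PRT1 was at 234, 210.0, 87.6 and 121, NIP1 at 223, 200.4, 68.2 and 87.6, and RPG1 at 223, 145, 68.2 and 74.2.

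Cap and tail binding factors were less uniform. CDC33, for the cap-binding eIF4E, was at 1173, 906, 429.9 and 349.6 (-1.45 in wild type). TIF4631, for the main eIF4G, was at 189, 153, 68.0 and 80.3 (-1.46), whereas TIF4632, for its paralog, was at 32.4, 24.4, 27.7 and 28.4 (-0.22). PAB1, the poly(A)-binding protein, was at 511, 324, 327 and 283 (-0.64), so it did not pass 2-fold. TIF4632 and PAB1 were the 2 members of this class that did not fall. Of the release factors, SUP45 (eRF1) was at 622, 527, 192 and 224 and SUP35 (eRF3) at 251, 218, 118 and 123, with folds of -1.69 and -1.08.

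Most synthetase genes did not pass 2-fold after starvation, but in wild type 5 fell. GLN4 (YOR168W, glutamine) was at 137, 139, 45.4 and 59.7 (log2 fold -1.57). FRS1 (1 subunit of the phenylalanine enzyme) was at 257, 243, 94.5 and 129 (-1.44), and GRS1 (glycine) at 405, 383, 163 and 166 (-1.31). SES1 (serine) was at 619, 611, 261 and 374 (-1.24), and WRS1 (tryptophan) at 369, 294, 157 and 132 (-1.23). All 5 had both starved libraries below both growing ones. They were picked by their wild-type fold, and the share of all ORFs in that order was not counted. The count of 5 was 9 with median of ratios and 2 with equal sums. None rose as deposited, and 8 had a fold above 0, of which only ALA1 and KRS1 lay above the median of all ORFs; with equal sums 11 were above 0 and with median-of-ratios scaling 2. ALA1 (YOR335C, alanine) was at 112, 92.2, 189 and 147 (0.75). KRS1 (YDR037W, lysine) was at 861, 933, 1316 and 1152 (0.61), and DED81 (asparagine) at 345, 358, 485 and 439 (0.49). For these 3 genes, picked as the highest wild-type folds of the class, both starved libraries lay above both growing ones as deposited. Scaled by median of ratios, DED81 had starvation folds of -0.045 (wild type) and -0.042 (deletion), and KRS1 one of -0.032 (deletion). The order was thus lost for at least DED81 and KRS1 under that scaling. The share of all ORFs in that order was not counted either. HTS1 (histidine) was at 257, 275, 325 and 282 and CDC60 (leucine) at 155, 156, 183 and 226, with wild-type folds of 0.34 and 0.24. DPS1 (aspartate), ILS1 (isoleucine), THS1 (threonine) and CRS1 (cysteine) had folds between -0.52 and 0.35.

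Some synthetase genes have products that work together. FRS1 and FRS2 encode the 2 subunits of 1 enzyme; FRS2 was at 203, 172, 112 and 137. The ratio of FRS1 to FRS2 was 1.27 and 1.42 in the growing libraries and 0.847 and 0.947 in the starved ones, wild type first. ARC1 holds the methionine and glutamate enzymes, MES1 and GUS1, in a complex. ARC1 was at 362, 304, 251 and 272, MES1 at 194, 185, 129 and 132, and GUS1 at 192, 175, 209 and 204. Wild-type folds were -0.53, -0.59 and 0.12, none at 2-fold.

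Both factor classes again had lower median folds than the synthetases when the deletion was starved. Of the 48 genes, 15 fell and none rose, where 8.77% of 5863 eligible ORFs fell and 22.4% rose. All 15 had also fallen in wild type, and how many eligible ORFs fell in both genotypes was not counted. Class medians were -0.83 for elongation, -1.02 for initiation and release and -0.33 for the synthetases, against 0.34 for all eligible ORFs. The 3 elongation genes that fell were TEF4 (-2.82), EFB1 (-1.96) and HYP2 (-1.68). TIF5 (-1.63), CDC33 (-1.37) and SUI1 (-1.32) were lowest in initiation and release, and GLN4 (-1.20), GRS1 (-1.20) and WRS1 (-1.15) the 3 synthetase genes that fell. The count of 15 depends on the scaling, being 27 with median of ratios, 23 by upper quartile and 11 with equal sums. At 1.5-fold, 27 members were lower and 1 higher, where 17.4% and 37.7% of ORFs were. Without the 3 near-identical pairs the elongation class lay at -1.49 relative to the synthetases, against -0.50 with them.

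**Figure D2:**
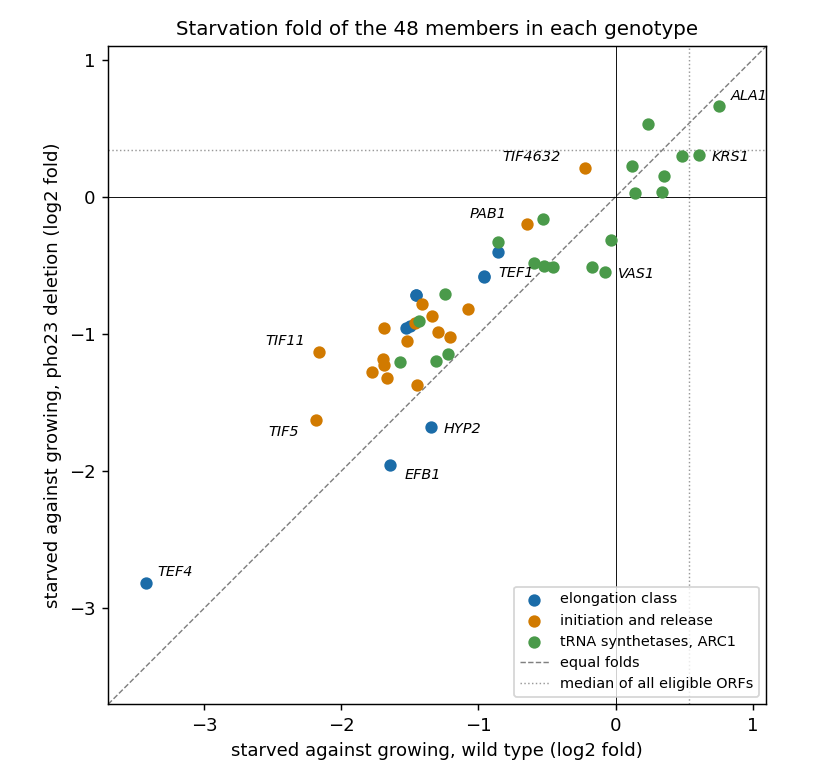
Log2 fold of starved against growing cells in wild type (x axis) and in the pho23 deletion (y axis) for the 48 genes, coloured by class; the dashed line marks equal folds and dotted lines the median of all eligible ORFs. Most factors lie at the lower left, with TEF4 farthest at -3.42 and -2.82, and most factors lie above the dashed line. TIF4632, at -0.22 and 0.21, lies apart from them, and synthetase genes such as GLN4 (-1.57 and -1.20) lie among them.

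**Figure D3:**
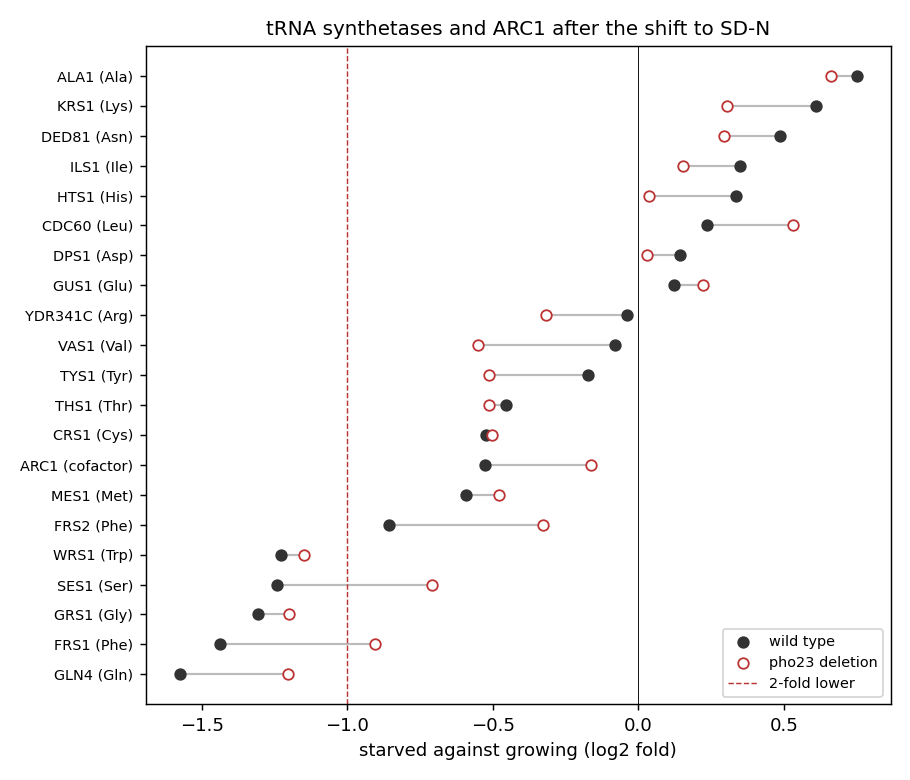
Log2 fold of starved against growing cells for the 20 synthetase genes and ARC1, filled points for wild type and open points for the pho23 deletion. GLN4, GRS1 and WRS1 lie beyond 2-fold lower in both genotypes, and ALA1 is at 0.75 and 0.66.

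Sequence shared by these genes was read from RefSeq's R64 genome, in windows of 250 bases before to 50 after each start codon. The word AAAATTTT, the core of the ribosomal RNA processing element (RRPE), stood in 34 of the 48 windows (70.8%), against 9.03% of 5961 windows of all ORFs. It reads the same on both strands. RRPE is known as a binding site of Stb3, a repressor that binds the Sin3 subunit of Rpd3 complexes. By class the word stood in 8 of 10 elongation windows, 13 of 17 in initiation and release and 13 of 21 in the synthetases. It was in 7 of the windows of 24 other cytosolic translation genes (29.2%) and in 6.57% of 137 ribosomal protein windows. The same 8 letters in the other order, TTTTAAAA, a word added after these counts were seen, stood in 2.08% of the member windows and 3.29% of all. Upstream AT content was 66.6% in members and 65.2% over all windows, by median. A match is a description of the letters and not a bound site.

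Counted from the start codon, with bases before it negative, the matches began at -157 by median, with quartiles of -185.5 and -126. Over other ORFs the median was -135.5. The first match of each elongation gene that has one is given here with 10 bases on each side, to show the word in its place, together with the 3 initiation and the 3 synthetase genes of lowest wild-type starvation fold that hold it; capitals mark the core, and each line reads 5′ to 3′ towards the gene.
TEF1 (chrXVI:700379-700406, plus strand): aaaggcaataAAAATTTTtatcacgttt
TEF4 (chrXI:282742-282769, plus strand): aattgaaagaAAAATTTTtttcatcaac
EFB1 (chrI:142007-142034, plus strand): ctttgaagaaAAAATTTTtcacattgtc
EFT1 (chrXV:574916-574943, plus strand): ttgcacttttAAAATTTTttttcaaatc
EFT2 (chrIV:1243050-1243077, plus strand): aagagagaaaAAAATTTTttcttaaaag
YEF3 (chrXII:636581-636608, plus strand): tgcgttggtgAAAATTTTttcgcttcct
HYP2 (chrV:85437-85464, plus strand): agtggtaataAAAATTTTtttcgtcgtc
TIF1 (chrXI:554794-554821, plus strand): tagtgactgaAAAATTTTtgcattctca
TIF5 (chrXVI:648485-648512, plus strand): taaatagtgaAAAATTTTcatcgcgaag
TIF35 (chrIV:1325408-1325435, minus strand): taacgaagttAAAATTTTtttctttcac
NIP1 (chrXIII:895570-895597, minus strand): tcgccgttgaAAAATTTTtcaatgagaa
FRS1 (chrXII:260873-260900, plus strand): aaggaaatgaAAAATTTTcaatgtattt
GRS1 (chrII:483585-483612, minus strand): aaaaaaattgAAAATTTTtactcttctc
SES1 (chrIV:489351-489378, plus strand): ggtgcaaaaaAAAATTTTtttgtcattt
In 12 of the 14 lines the base after the core is another T. These lines are a picked part of the member matches, and the share over other matches was not counted. TEF2, TIF2, TIF11, TIF34, PAB1 and TIF4632 are the factors with no such word in the window, and TIF11 had its low fold without it. Among the synthetases, the 13 with the word had a median wild-type starvation fold of -0.52 and the 8 without it 0.19, with ranges that overlap (-1.44 to 0.49 and -1.57 to 0.75). Over all eligible ORFs with a window the medians were -0.95 with and 0.63 without it. The whole window of TEF4, the member of lowest fold, shows where the core lies.
TEF4 (chrXI:282641-282940, plus strand): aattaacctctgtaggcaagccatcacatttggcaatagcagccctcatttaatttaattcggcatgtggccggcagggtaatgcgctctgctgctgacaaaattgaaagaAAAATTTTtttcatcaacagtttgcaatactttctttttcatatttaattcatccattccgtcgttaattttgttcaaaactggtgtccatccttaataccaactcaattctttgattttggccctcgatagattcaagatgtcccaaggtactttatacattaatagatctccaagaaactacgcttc

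**Figure D4:**
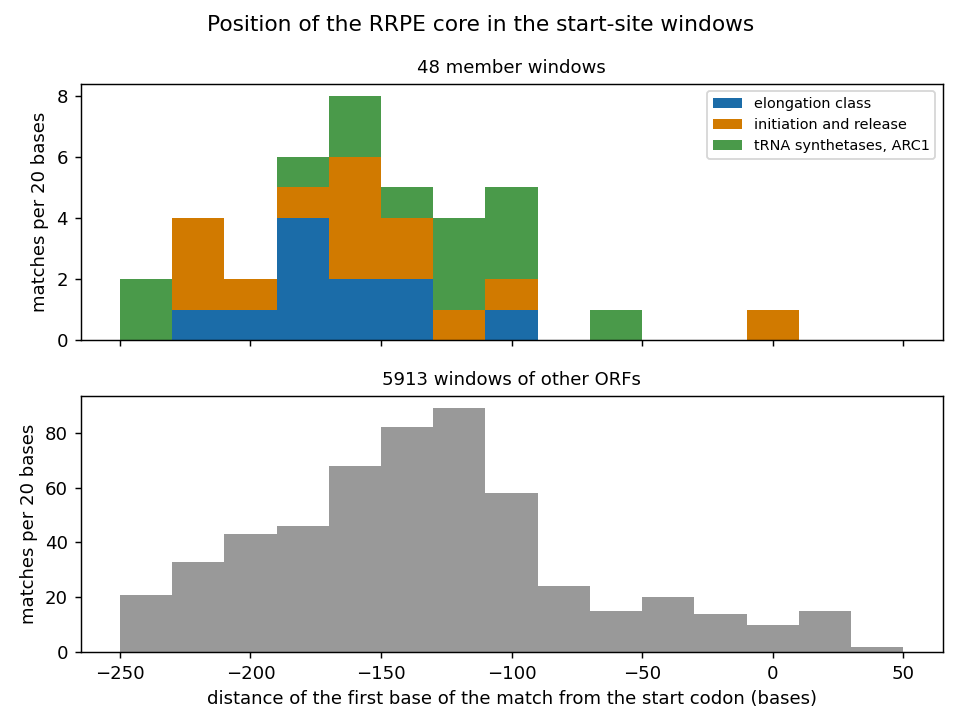
Distance of each match of the RRPE core from the start codon, in bases, as counts per 20 bases for the member windows (top, stacked by class) and the windows of other ORFs (bottom). Member matches have a median of -157 and those of other ORFs of -135.5.

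The core of Gcn4 sites, TGACTC on either strand, stood in 9 of the 21 synthetase windows (42.9%) and in none of the other 27 member windows, against 7.99% of all windows. The 9 genes were ALA1, ILS1, KRS1, THS1, VAS1, GLN4, YDR341C, CRS1 and ARC1. Their wild-type starvation folds ran from -1.57 to 0.75, with a median of -0.08, against -0.38 for the 12 without it. The windows of the synthetase genes with the highest and the lowest wild-type fold are set beside each other, with the core in capitals.
ALA1 (chrXV:949060-949359, minus strand): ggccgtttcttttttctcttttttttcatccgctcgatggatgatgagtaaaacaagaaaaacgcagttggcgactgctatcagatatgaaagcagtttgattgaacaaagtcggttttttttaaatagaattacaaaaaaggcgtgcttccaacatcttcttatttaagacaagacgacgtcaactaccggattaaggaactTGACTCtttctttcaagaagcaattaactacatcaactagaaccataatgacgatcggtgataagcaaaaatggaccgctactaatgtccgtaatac
GLN4 (chrXV:649053-649352, plus strand): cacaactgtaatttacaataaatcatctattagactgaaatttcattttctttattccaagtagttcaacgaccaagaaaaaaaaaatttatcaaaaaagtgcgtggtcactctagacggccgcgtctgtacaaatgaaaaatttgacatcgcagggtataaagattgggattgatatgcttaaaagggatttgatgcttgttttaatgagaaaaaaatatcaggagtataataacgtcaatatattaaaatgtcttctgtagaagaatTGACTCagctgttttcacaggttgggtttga
In ALA1 the word starts 47 bases before the start codon, whereas in GLN4 it starts at base 19 after the start, inside the coding sequence. GCN4 itself had RPKM values of 826, 987, 1532 and 1545. Its protein level is not measured here. The PAC word GCGATGAG stood in 6.25% of member windows and 3.96% of all, and the URS1 core GGCGGC, bound by Ume6, in 4.17% and 5.15%. The GATA word GATAAG stood in 18.8% and 14.7%, and ACCCNNACA, the Rap1 core, in 4.17% and 2.82%. Of 137 ribosomal protein windows, 8.76% held the Rap1 core. Bases farther upstream than the window were not searched, so a low share does not show that Rap1 sites are missing.

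Between genotypes no member passed 2-fold in growing cells, where 3.95% of 5439 eligible ORFs were higher in the deletion and 2.08% lower. Yet 42 of the 48 folds were below 0, where 2270 of the 5439 eligible ORFs were. The member median was -0.16 against 0.07 for all eligible ORFs. Class medians were -0.17 for elongation, -0.23 for initiation and release and -0.07 for the synthetases. At 1.5-fold, 2 members were lower and none higher, where 4.73% and 12.3% of ORFs were. They were PAB1, at 511 in wild type and 324 in the deletion (-0.65), and RPG1, for the largest eIF3 subunit, at 223 and 145 (-0.61). All 17 initiation and release genes were below 0, SUI1 closest to it at -0.09. In the elongation class YEF3 was lowest at -0.45 and HYP2 alone above 0, at 0.15. KRS1 (0.11), HTS1 (0.10) and DED81 (0.05) were the highest synthetases, the last below 0 with median of ratios or upper quartile, and WRS1 (-0.33), ALA1 (-0.28) and ARC1 (-0.25) the lowest of that class.

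In starved cells again no member passed 2-fold, where 5.3% of 5976 eligible ORFs were higher and 4.13% lower in the deletion. The factors and the synthetases now lay on different sides of 0. Medians were 0.30 for elongation, 0.22 for initiation and release and -0.12 for the synthetases, against -0.04 over all eligible ORFs. Scaling to equal sums moved that ORF median by -0.14 and the member median from 0.095 to -0.048, a change of sign. Without the near-identical pairs the elongation median was -0.089, and its distance from the synthetase median 0.027 in place of 0.42, so that contrast rests on TEF1, TEF2, EFT1, EFT2, TIF1 and TIF2. At 1.5-fold, 2 members were higher and 1 lower, where 10.9% of ORFs were on either side. TIF11 was at 295 in wild type and 493 in the deletion (0.74; ratio 1.67, counting interval 1.60 to 1.75). TEF4 was at 102 and 155 (0.59), and EFB1, the other eEF1B gene, at 839 and 547 (-0.62).

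Beyond those 3 genes, initiation and release was led by PRT1, of eIF3 (0.47), and TIF5 (0.38). CDC33 (-0.30) and PAB1 (-0.20) were the only genes of the class below 0 as deposited. The eIF2 genes were all above 0, at 0.03 to 0.16, and the eIF3 genes at 0.12 to 0.47, but with equal sums SUI3, GCD11, RPG1, SUP35 and TIF4632 went below it. Of the synthetases, SES1 (0.51), FRS1 (0.45) and GLN4 (0.39) were highest. Both this comparison and starvation in wild type use the starved wild-type library. VAS1 (valine) was at 291, 276, 275 and 188, a starved genotype fold of -0.55. YDR341C (arginine) was at 357, 319.8, 348 and 256 (-0.44) and TYS1 (tyrosine) at 332, 313, 295 and 219 (-0.43). In these 3 genes, the lowest of their class in this comparison, the starved deletion was the lowest of the 4 libraries. The share of all ORFs with that order was not counted. Folds of the 3 genes in growing cells were -0.07, -0.16 and -0.09.

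**Figure D5:**
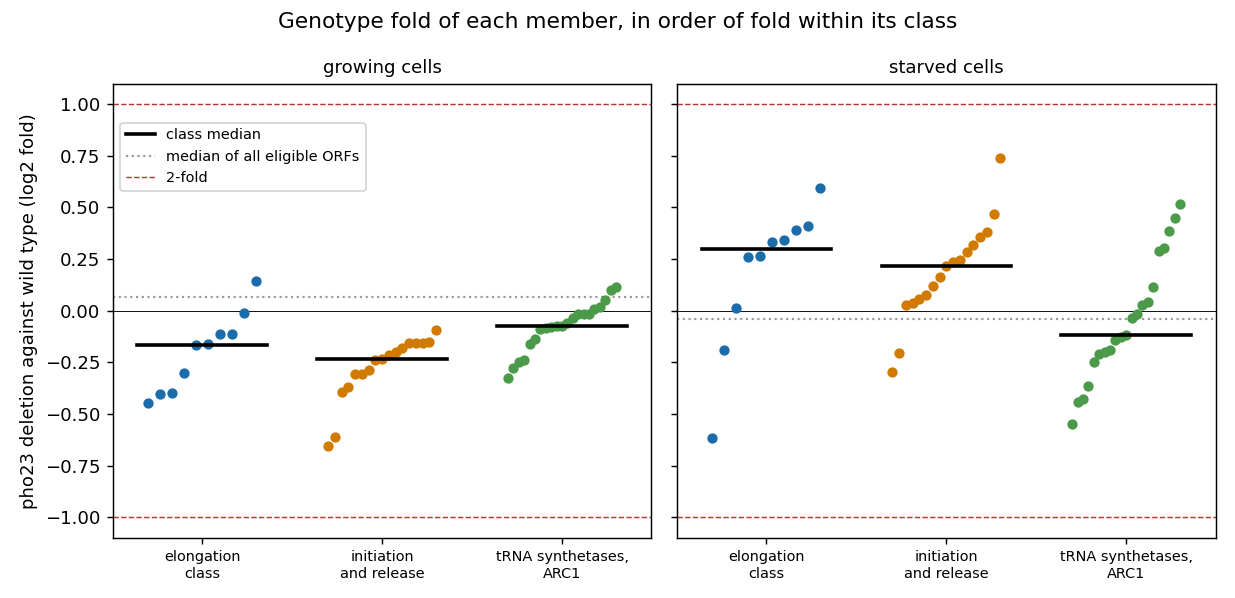
Log2 fold of the pho23 deletion against wild type for the 48 genes, 1 point a gene in order of fold within its class, in growing cells (left) and starved cells (right). Black bars are class medians, the dotted line the median of all eligible ORFs and the dashed lines 2-fold; the medians of both factor classes are below 0 on the left (-0.17 and -0.23) and above it on the right (0.30 and 0.22).

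As deposited, 29 of the 48 genes were below 0 in growing cells and above 0 in starved ones, and with equal sums 9 of these were not above 0 in starved cells. The 29 were 8 of 10 elongation, 15 of 17 initiation and release and 6 of 21 synthetase genes. Those 8 elongation genes include all of the near-identical pairs. Another 13 members were below 0 in both, among them 10 synthetases, EFB1, CDC33 and PAB1. Of all eligible ORFs, 2270 of 5439 were below 0 in growing cells and 2691 of 5976 above 0 in starved ones. How many ORFs were both was not counted. Both comparisons are of 1 library with 1, and most of the member folds are small.

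The starvation folds of the genotypes were also set against each other, as the fold in the deletion minus that in wild type. As deposited the difference was above 0 in 36 of the 48 genes, where it was in 2180 of 6034 eligible ORFs. By class it was above 0 in all 17 of initiation and release, 8 of 10 of elongation and 11 of 21 of the synthetases. With equal sums these member counts were 30, 16, 8 and 6. Medians were 0.47, 0.51 and 0.02, against -0.15 for all eligible ORFs. The elongation count and median rest on the near-identical pairs, whose genes were all above 0. Outside the pairs that class had TEF4 at 0.60, YEF3 at 0.46, EFB1 at -0.31 and HYP2 at -0.34. Only TIF11 passed 2-fold, at 1.03, where 5.27% of 6034 eligible ORFs were higher and 5.45% lower, and with equal sums it did not. At 1.5-fold there were 6 members, all higher, where 9.79% of ORFs were higher and 16.7% lower. Besides TIF11 they were EFT2 (0.74) and EFT1 (0.73), a near-identical pair, and RPG1 (0.73), PRT1 (0.62) and TEF4 (0.60). VAS1 had the lowest difference, -0.47, followed by TYS1 and HYP2 at -0.34.

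Paralogs of some members ran the other way. CAM1 also encodes a gamma subunit of eEF1B. It was at 96.7, 106, 163 and 156, so the ratio of TEF4 to CAM1 went from 11.4 and 10.4 in the growing libraries to 0.625 and 0.991 in the starved ones. GRS2, a second glycine synthetase gene, rose in wild type (13.7, 16.9, 33.5 and 25.4), and GRS1 to GRS2 was 29.5, 22.7, 4.87 and 6.55. HEF3, for a second eEF3, rose there too from 9.66 to 20.8, and YEF3 to HEF3 was 168, 85.0, 43.0 and 31.5. For eIF5A the pair moved together: ANB1 was at 226, 230.1, 83.5 and 74.0, and HYP2 to ANB1 stayed between 6.09 and 6.61. The coding bases of HYP2 and ANB1 are 90.9% identical, whereas those of TEF4 and CAM1 are 69.0% and of GRS1 and GRS2 59.7% identical.

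For comparison, 13.3% of eligible ORFs fell and 32.7% rose in starved wild type, and 8.77% fell and 22.4% rose in the starved deletion. Among 24 other cytosolic translation genes, 9 fell and 3 rose in starved wild type and 3 fell and 1 rose in the starved deletion, with medians of -0.72 and -0.43. STM1, which binds ribosomes, was at 1319, 1313, 220.1 and 493. It was the only one of the list past 2-fold between genotypes, higher in the starved deletion (1.16). TIF3, for eIF4B, had the lowest fold after it in starved wild type (-1.63). GCN2, the kinase that senses uncharged tRNA, was at 7.20, 6.32, 28.6 and 16.9 and rose in both genotypes (1.85 and 1.29). Of 137 genes for cytosolic ribosomal proteins all fell in wild type (median -2.51) and 77 in the deletion (-1.02). In starved cells all 137 were higher in the deletion than in wild type (median 1.44), and 132 of them by 2-fold or more, where 5.3% of eligible ORFs were. The factors had medians of 0.30 and 0.22 there, and in growing cells the ribosomal protein median was -0.06. The starved wild-type library enters both of the larger values, -2.51 and 1.44.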

How the data were processed

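The values are RPKM per ORF, deposited by the authors as 1 table with a column for each of 4 libraries. Per the submitters' processing notes, CASAVA 1.8.2 and Bowtie2 2.1.0 were used with genome sacCer3, which is R64. Not given in the sources used here are the counting tool, the annotation, the use of strand and the treatment of reads that map to several places. All 4 columns were used. The members and gene lists were chosen with earlier results of these data known.

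Folds were log2((RPKM + 1)/(RPKM + 1)) without further scaling. An ORF entered a comparison if either library had it at an RPKM of 10 or higher. It was called from 2-fold, with a second limit of 1.5-fold. With 1 library per group no test was run and no p-value is given. Values in all 4 libraries were given for all elongation genes, the 3 highest and 3 lowest genes of each other class in each comparison, the subunits of shared complexes and the near-identical pairs. Read numbers were estimated from the step between low values (RPKM times length in kb, below 0.06), which is rough. Counting intervals are 95% and exact binomial (Clopper-Pearson) on those reads.

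Windows of 250 bases before to 50 bases from the start codon were cut from the RefSeq R64 genome by its annotation. Words were searched on both strands. The annotation holds 5997 of the 6678 ORFs, and 5961 gave a window. Alternatives were another scaling (median of ratios, equal sums, upper quartile), pseudocounts of 0.1 and 5, an RPKM minimum of 30 or none, 1.5-fold, leaving out near-identical pairs, and TIF1 and TIF2 moved to initiation. Scripts ran in Python 3.11.15 with pandas 2.3.3, NumPy 2.4.6 and SciPy 1.17.1, and the fold and count steps were tested on simulated data.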

Additional observations from a re-analysis of the deposited data

Results flagged for a closer look

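Genotype folds that changed sign between growing and starved cells were picked out for both factor classes. The median log2 fold of the deletion against wild type was -0.17 growing and 0.30 starved for the elongation class, a change of 0.46. For initiation and release it was -0.23 and 0.22, a change of 0.45. The gene TIF11 went from -0.29 to 0.74, a change of 1.03. For a single gene this change is the same quantity as the difference of its starvation folds given above. These differences were not tested, as each value compares 1 library with 1. The elongation value rests on the near-identical pairs, without which its starved median was -0.089.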

How the results depend on the processing

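No paired analysis was possible because each group is 1 library with no replicate number, and no library was left out since no group has another. The 18 results that answer a comparison were each recomputed under several alternatives. Of these recomputed values 104 stayed within the limits (1.5 times for a count, and for a median the median counting error of a member fold), 26 moved beyond them and 1 changed sign. For the 15 class medians the recomputed values numbered 48, 39 and 3. The cause was not tested for any of them.

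With median of ratios, the member median was -0.25 (growing genotype), 0.20 (starved genotype), -1.77 (starvation, wild type), -1.09 (starvation, deletion) and 0.56 (difference of starvation folds), against -0.16, 0.10, -1.23, -0.75 and 0.37 as deposited. By upper quartile it was -0.22 for the growing genotype, -1.52 and -0.94 for starvation and 0.46 for the difference. With equal sums it was -0.048 for the starved genotype, a change of sign, -0.92 and -0.58 for starvation and 0.22 for the difference. The count of members past 2-fold in the starved deletion, 15, was 27 with median of ratios and 23 by upper quartile, and that for the difference, 1, was 0 with equal sums. At 1.5-fold the counts were 2 and 3 between genotypes, growing and starved, 28 in the starved deletion and 6 for the difference. Without the near-identical pairs the member median was 0.038 for the starved genotype and -0.80 for starvation in the deletion. Elongation relative to synthetases was then 0.027 for the starved genotype and -1.49 for starvation in the deletion. With TIF1 and TIF2 moved to initiation it was -0.14 in the growing genotype, -1.23 and -0.39 in starvation. Class medians that changed sign were that of elongation in the starved genotype (-0.089 without the pairs) and, with equal sums, those of the synthetases in wild-type starvation (0.15) and in the difference (-0.13). Other pseudocounts and RPKM minimums kept those 18 results within the limits, the count of 15 in the starved deletion being 14 with a pseudocount of 5.

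Depth does not limit the member values, but 1 library a group gives no measure of variation between cultures.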

Other observations

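Yeast mitochondria have synthetases of their own for many amino acids, and 13 members could be set beside the mitochondrial enzyme for the same amino acid. In wild-type starvation the cytosolic genes had a median log2 fold of -0.04 and the mitochondrial ones of -0.69, and the cytosolic fold was the higher in 10 of 13 pairs. In the deletion the medians were -0.32 and -0.93, with 12 of 13. KRS1 and MSK1 for lysine were at 0.61 and -0.62, GUS1 and MSE1 for glutamate at 0.12 and -1.64, and DPS1 and MSD1 for aspartate at 0.14 and -1.34 in wild type. The 3 pairs that ran the other way there were FRS1 and MSF1 (-1.44 and -0.40), WRS1 and MSW1 (-1.23 and -0.11) and SES1 and DIA4 (-1.24 and -0.51). Over the 20 mitochondrial synthetase and translation factor genes 8 fell in wild type and 9 in the deletion, and none rose. Of all eligible ORFs 13.3% fell and 32.7% rose in wild type, and 8.77% fell and 22.4% rose in the deletion.

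Synthetases fall into 2 unrelated structural classes, a grouping added here after the values were seen. In wild-type starvation the 10 class I genes had a median of -0.12 and the 10 class II genes of -0.16. Of them 2 and 3 fell, where 13.3% of eligible ORFs did. In the deletion the medians were -0.49 and -0.15.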
